A study of Mus musculus with 36 samples.

Results

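The late-night SCN was compared with the early-night SCN in mice that had received both the MEK inhibitor U0126 and a light pulse. The comparison took the 3 U0126-Light CT22 arrays against the 3 U0126-Light CT15 arrays, which are 6 of the 36 arrays and 2 of the 12 groups of the series. Each value is the log2 intensity at CT22 minus that at CT15, so a positive difference is higher late in the night. A gene was read by the brightest probe set that carries its symbol and no other, which gave 30176 genes, and control probe sets were left out.

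Both groups were adult C57BL/6J wild-type mice of 8 to 14 weeks, kept in constant darkness for 2 days, and every one of them carried a cannula in the lateral ventricle, placed under ketamine and xylazine anaesthesia. U0126 at 10 mM, given in 3 µL, was infused 30 min before a 10 min pulse of light at 100 lux, so the 2 groups share the surgery, the drug and the light, and the labels set them apart by circadian time: CT15 is early and CT22 late subjective night (the study's methods write ZT15 and ZT22). The volume is that of the sample protocol, and the study's methods give a smaller one. The other groups of the series combined U0126 or its vehicle, dimethyl sulfoxide (DMSO), with light or a sham pulse at CT4, CT15 and CT22. Tissue was taken 50 min after the pulse by the design text and 60 min after it by the sample protocol.

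Each array read SCN tissue pooled from 2 mice, so the 3 arrays of a group are separate pools and not single animals. Fewer cells of a type and less RNA per cell cannot be told apart in such tissue. The drug was given into the ventricle and reaches the tissue around it, not the SCN alone. The pools also differed in sex, unevenly between the groups: Xist, the RNA made from the inactive X chromosome, read 9.87, 3.48 and 10.04 on the CT15 arrays and 3.42, 10.15 and 3.55 on the CT22 arrays, and the 3 Y-linked genes averaged 3.64 on CT22 array 2 against 6.14 to 7.06 on the other 5. SCN markers were present: the neuropeptides Vip and Avp averaged 9.76 and 9.77 at CT15 and the SCN transcription factor Six6 averaged 7.40. Oxt, a peptide of hypothalamic neurons next to the SCN, was also bright, at 10.66. Choroid plexus markers were dim, with Folr1 at 4.10.

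The SCN is the master circadian pacemaker of mammals. Its cells keep time by a feedback loop in which CLOCK and BMAL1 (gene Arntl) drive transcription of the Per, Cry and Nr1d1 genes, whose products shut that transcription down again, so clock genes and their targets differ between early and late night without any light. Light at night reaches the SCN from the retina through glutamate and PACAP, and the ERK/MAPK cascade, which U0126 blocks at MEK, carries part of that signal to immediate early genes and to Per1 and Per2.

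A gene was called when its adjusted p was at most 0.1 and its fold above 1.3, the study's own numerical thresholds, in a limma fit of all 12 groups with Benjamini-Hochberg adjustment over 65956 probe sets. By this rule 1063 of the 30176 genes differed (3.52%): 692 were higher at CT22 (2.29%) and 371 were lower (1.23%). The median difference over all genes was 0.05, and 8656 genes had an unadjusted p under 0.05. All 3 CT22 arrays lay above all 3 CT15 arrays for 7352 genes (24.4%) and below them for 3607 (12%). The count rested in part on single pools, since 697 genes were called without CT15 array 3 against 1063 with it. Of the 1063 genes, 493 remained called whichever of the 6 arrays was left out.

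**Figure D1:**
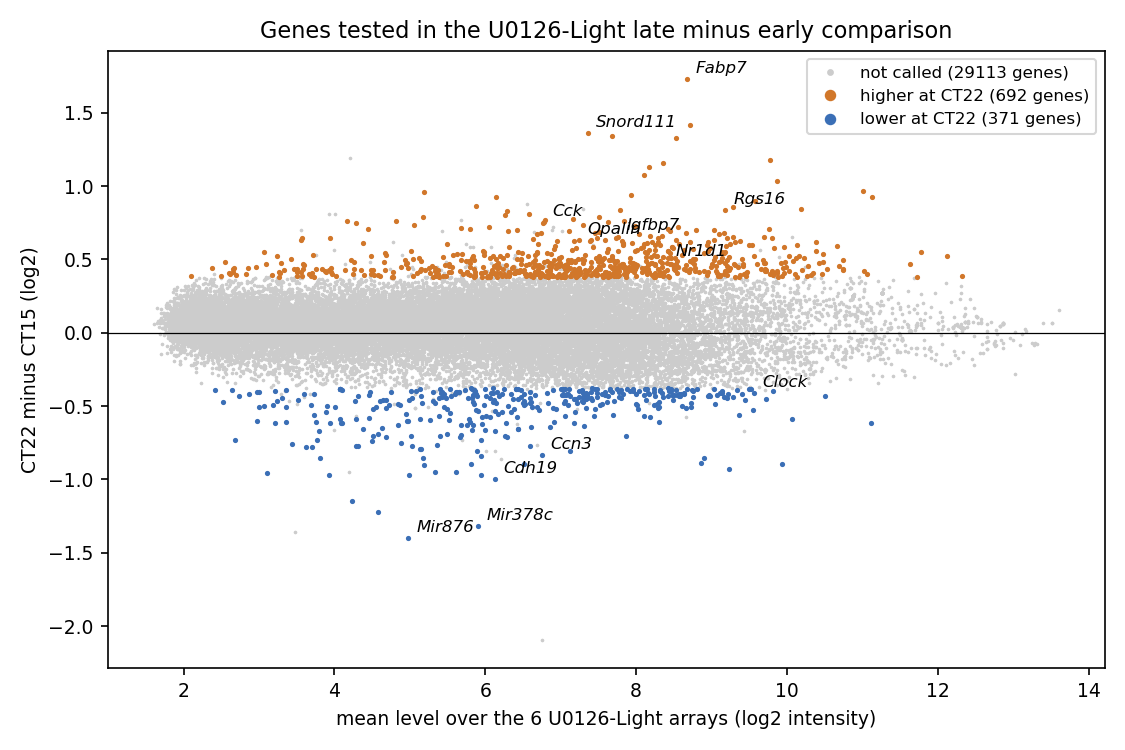
Difference between CT22 and CT15 under U0126-Light (log2, vertical) against the mean level over the 6 arrays (log2 intensity, horizontal), 1 point per gene. The 692 genes called higher are orange and the 371 called lower are blue; Fabp7 lies highest at 1.73 and the microRNA gene Mir876 is the lowest called gene at -1.40, while the uncalled point at -2.09 is Xist.

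Fabp7, the brain fatty acid binding protein of astrocytes and radial glia, had the largest difference of any called gene. It read 7.88, 7.81 and 7.73 on the CT15 arrays and 9.59, 9.38 and 9.65 on the CT22 arrays. The groups were far apart, with the lowest late array well above the highest early one. The difference was 1.73 (SE 0.10, adjusted p = 7.11e-12), a 3.32-fold higher level late in the night, and it was called without any one array and under all the other settings tried. At CT4 under the same treatment Fabp7 averaged 9.42 ± 0.01 (SD, n = 3), close to its late-night level. None of the 8 markers of homeostatic astrocytes measured was called, among them Gja1 (0.11), Slc1a3 (-0.01), Aldh1l1 (0.22, adjusted p = 0.027) and Sox9 (0.36). Sox9 was called with array weights (0.39) and with covariates for Xist and the Y-linked genes (0.49). The mean level of the list ran from 8.24 to 8.27 at CT15 and from 8.34 to 8.42 at CT22. The part of astrocytes in the rise of Fabp7 was not tested.

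The promoter of Fabp7 is shown because the gene led the comparison. Its 250 bases before and 50 after the start, in RefSeq on GRCm38.p6 at chr10:57784673-57784972 on the plus strand, hold 1 match to AGGTCA, the half-site that ROR and REV-ERB receptors read, on the opposite strand as TGACCT from base -171. The match is in capitals.
Fabp7 promoter: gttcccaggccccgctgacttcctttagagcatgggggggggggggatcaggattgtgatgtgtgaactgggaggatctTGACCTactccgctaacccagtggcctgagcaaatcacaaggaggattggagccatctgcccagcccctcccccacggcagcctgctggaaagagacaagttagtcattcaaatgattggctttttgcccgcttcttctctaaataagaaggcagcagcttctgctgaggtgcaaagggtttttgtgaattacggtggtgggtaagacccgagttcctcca
A match to AGGTCA on either strand was found in 16.3% of all 32851 promoters listed, in 16.9% of the 350 genes called higher that have a promoter in the table, in 10.4% of the 154 called lower and in 16.8% of the 17468 genes not called. It is a description of the letters and not a measured binding site.

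Among the core clock genes, 1 activator was lower and 1 repressor higher. Clock read 9.75, 9.73 and 9.84 at CT15 and 9.43, 9.35 and 9.31 at CT22. The late arrays all lay below the early ones, and the difference was -0.41 (SE 0.06, adjusted p = 0.000167, 1 of 5 activators measured). Without CT15 array 3 it was -0.38 (adjusted p = 0.00307) and fell just short of the fold threshold. Arntl, its partner, read 8.01, 8.04 and 8.26 early and 7.88, 7.78 and 7.57 late, a difference of -0.36 (adjusted p = 0.00745) that missed the fold threshold and passed it when any of CT15 array 1 (-0.41), CT15 array 2 (-0.40), CT22 array 1 (-0.43) or CT22 array 2 (-0.38) was left out. The nuclear receptor gene Rorb was at -0.36 (adjusted p = 0.111) by its brightest probe set and at -0.47 (adjusted p = 0.0348) by its other one.

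Nr1d1, which encodes the REV-ERB alpha repressor of Arntl and Clock, read 8.13, 8.20 and 8.18 at CT15 and 8.72, 8.81 and 8.41 at CT22. All late arrays were above all early ones, by 0.48 (SE 0.09, adjusted p = 0.00117, 1 of 9 repressors measured), and this call was kept under every setting tried. Among the other repressors Per3 was at -0.33 (adjusted p = 0.00374) and Cry1 at -0.24 (adjusted p = 0.00554), both with separate groups and both under the fold threshold. The light-responsive Per1 was at 0.20 (adjusted p = 0.134) and Per2 at -0.13 (adjusted p = 0.129). Per2 read 7.20, 7.14 and 7.21 early and 7.02, 7.10 and 7.03 late, so its groups did not overlap but stood close. None of the 6 kinases and ubiquitin ligases of the clock and none of the 4 PAR bZIP output factors, Dbp among them at 0.02, was called.

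**Figure D2:**
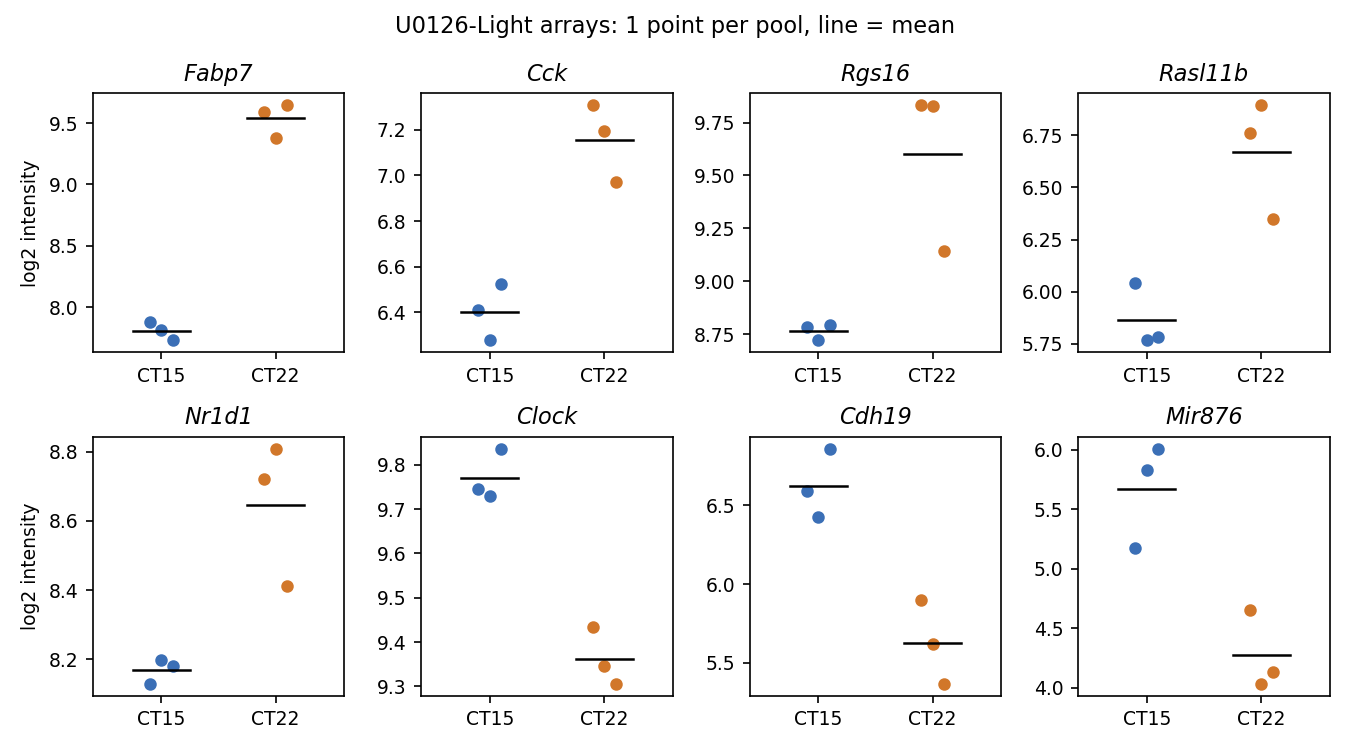
Log2 intensity (vertical, its own scale in each panel) of 8 genes on the 6 U0126-Light arrays, 1 point per pool of 2 mice, with the mean as a line. In every panel the 3 CT22 points lie on 1 side of the 3 CT15 points, above them for Fabp7, Cck, Rgs16, Rasl11b and Nr1d1 and below them for Clock, Cdh19 and Mir876.

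Of 15 SCN neuropeptide genes, 3 were called higher and none lower, with a median of 0.22. Cck, which encodes cholecystokinin, read 6.41, 6.28 and 6.52 at CT15 and 7.31, 7.20 and 6.97 at CT22. The groups were separate, and the difference of 0.76 (SE 0.13, adjusted p = 0.000494) was called under all settings. Avp, the vasopressin gene of the SCN shell and a clock target through an E-box, read 10.21, 9.45 and 9.64 early and 10.23, 10.38 and 11.22 late. Its highest early array all but touched its lowest late one. The difference of 0.84 (SE 0.26, adjusted p = 0.0244) was not called without CT15 array 2 (0.68, adjusted p = 0.126), CT15 array 3 (0.78, adjusted p = 0.108) or CT22 array 3 (0.54, adjusted p = 0.222).

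Oxt, whose neurons lie outside the SCN, moved with Avp array by array. It read 11.19, 10.29 and 10.50 at CT15 and 11.27, 11.28 and 12.20 at CT22, the same order of arrays within each group as for Avp. It was higher by 0.92 (SE 0.31, adjusted p = 0.0403), and that call too was lost without CT15 array 2 (0.74), CT15 array 3 (0.84) or CT22 array 3 (0.61). Of the 10 markers of neighbouring hypothalamic nuclei only Oxt was called, and their mean level ran from 6.32 to 6.55 at CT15 and from 6.67 to 6.86 at CT22. Their part in the Avp difference was not tested.

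Prok2, a secreted SCN output signal, was at 0.54 (adjusted p = 0.054), a call lost without CT15 array 2 (0.54, adjusted p = 0.111), CT15 array 3 (0.39) or CT22 array 2 (0.41). Vip, the peptide of the light-receiving SCN core, was at -0.67 (adjusted p = 0.10) and did not meet the rule. None of the 12 peptide and light-input receptors measured was called, although the glutamate receptor genes Grin2b (-0.36, adjusted p = 0.00088) and Gria2 (-0.25, adjusted p = 0.0018) had small p-values under the fold threshold.

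The promoters of Cck and Avp are shown because each holds the E-box CACGTG, the site that CLOCK and BMAL1 read, in capitals. They are RefSeq sequences on GRCm38.p6, Cck at chr9:121495645-121495944 and Avp at chr2:130582539-130582838, both on the minus strand and written 5′ to 3′ along the gene. The match starts at base -66 in Cck and at base -139 in Avp.
Cck promoter: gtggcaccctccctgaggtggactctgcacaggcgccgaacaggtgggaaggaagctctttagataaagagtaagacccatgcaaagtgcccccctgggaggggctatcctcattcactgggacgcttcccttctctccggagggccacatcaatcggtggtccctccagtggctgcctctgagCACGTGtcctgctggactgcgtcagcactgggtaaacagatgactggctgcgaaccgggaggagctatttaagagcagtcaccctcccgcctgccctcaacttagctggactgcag
Avp promoter: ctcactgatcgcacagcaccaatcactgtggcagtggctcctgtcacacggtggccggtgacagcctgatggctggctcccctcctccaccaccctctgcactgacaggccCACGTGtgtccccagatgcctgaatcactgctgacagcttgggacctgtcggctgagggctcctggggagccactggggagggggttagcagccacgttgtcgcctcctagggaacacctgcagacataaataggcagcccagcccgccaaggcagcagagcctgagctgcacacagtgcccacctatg
CACGTG reads the same on both strands, and 11.4% of the genes called higher hold it, 7.14% of those called lower, 8.92% of those not called and 7.15% of all promoters listed. In the shares of both motifs a gene was counted if any of its listed promoters held a match, while the share of all promoters counts each promoter. Neither CACGTG nor AGGTCA was found in this window of Nr1d1, Rgs16 or Rasl11b, nor in that of Rora, Dbp or Per3. Per1 and Cry1, neither of them called, hold CACGTG in a listed promoter. Clock, Arntl and Per1 hold AGGTCA in one, so a match went with rises, falls and genes not called.

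Regulators of G protein signaling in the SCN gave 2 genes higher and 1 lower of 10. Rgs16, which speeds the shut-off of Gi signaling, read 8.79, 8.72 and 8.79 at CT15 and 9.83, 9.83 and 9.14 at CT22. The early arrays were tightly grouped and all late arrays lay above them, by 0.83 (SE 0.17, adjusted p = 0.00127). Rasl11b, a small Ras-like GTPase, read 6.04, 5.77 and 5.79 early and 6.76, 6.89 and 6.35 late. Its groups were also separate, with a difference of 0.80 (SE 0.16, adjusted p = 0.00121). Rasd1, a Ras-related protein that modulates the response of the SCN to light, read 8.37, 8.18 and 8.61 early and 8.07, 7.75 and 7.65 late, and was lower by -0.57 (adjusted p = 0.0152). The Rgs16 and Rasl11b calls were kept under all settings, while Rasd1 was not called without CT15 array 3 (-0.45, adjusted p = 0.119).

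Few immediate early genes and no ERK target were called between late and early night under U0126-Light. Of 30 immediate early genes 2 were higher (6.67%, against 2.29% of all genes) and none was lower, with a median of 0.23 against 0.05 over all genes. Fos, the classic marker of light-activated SCN neurons, read 8.90, 8.81 and 8.70 early and 9.24, 8.99 and 8.72 late. The groups overlapped and its difference was 0.18 (SE 0.50, adjusted p = 0.862), an error too wide to exclude a fold of the size of the threshold. The called genes were Arc, a synaptic plasticity gene, at 0.73 (adjusted p = 0.0535), and the AP-1 factor Fosl2 at 0.44 (adjusted p = 0.0278). Arc was not called without CT15 array 2 (0.69), CT15 array 3 (0.73), CT22 array 1 (0.68) or CT22 array 2 (0.60), nor Fosl2 without CT15 array 2 (0.35) or CT22 array 2 (0.33). Under the other treatments the 30 genes gave 2 higher and 2 lower (DMSO-Light), 13 and 1 (U0126-Sham) and 16 and 0 (DMSO-Sham). Of all genes 6.69%, 6.83% and 6.71% were called there in either direction. None of the 30 passed the test of the difference between U0126-Light and another treatment.

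None of the 19 genes of ERK feedback and ERK targets was called by the limma fit, while 9 of them had an unadjusted p under 0.05. Dusp4, a phosphatase that inactivates ERK, read 5.79, 6.05 and 5.97 early and 6.35, 6.40 and 6.10 late. Its groups were separate, and the difference of 0.35 (adjusted p = 0.0903) fell under the fold threshold; without CT15 array 2 (0.41) or CT22 array 3 (0.44) it was called. Dusp6, another ERK phosphatase, was at -0.01 (95% interval -0.28 to 0.27), Spry2 at -0.07 and Spry4 at 0.29 (adjusted p = 0.0985), the last of which was called without CT22 array 1 (0.40). The Ras-related Rrad was at 0.37 (adjusted p = 0.162), with overlapping groups, and was called without CT15 array 1 (0.51). Of the 19 ERK genes 0 were called higher under DMSO-Light, 1 under U0126-Sham and 6 under DMSO-Sham, and none lower. None of them passed the test of the difference between treatments.

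**Figure D3:**
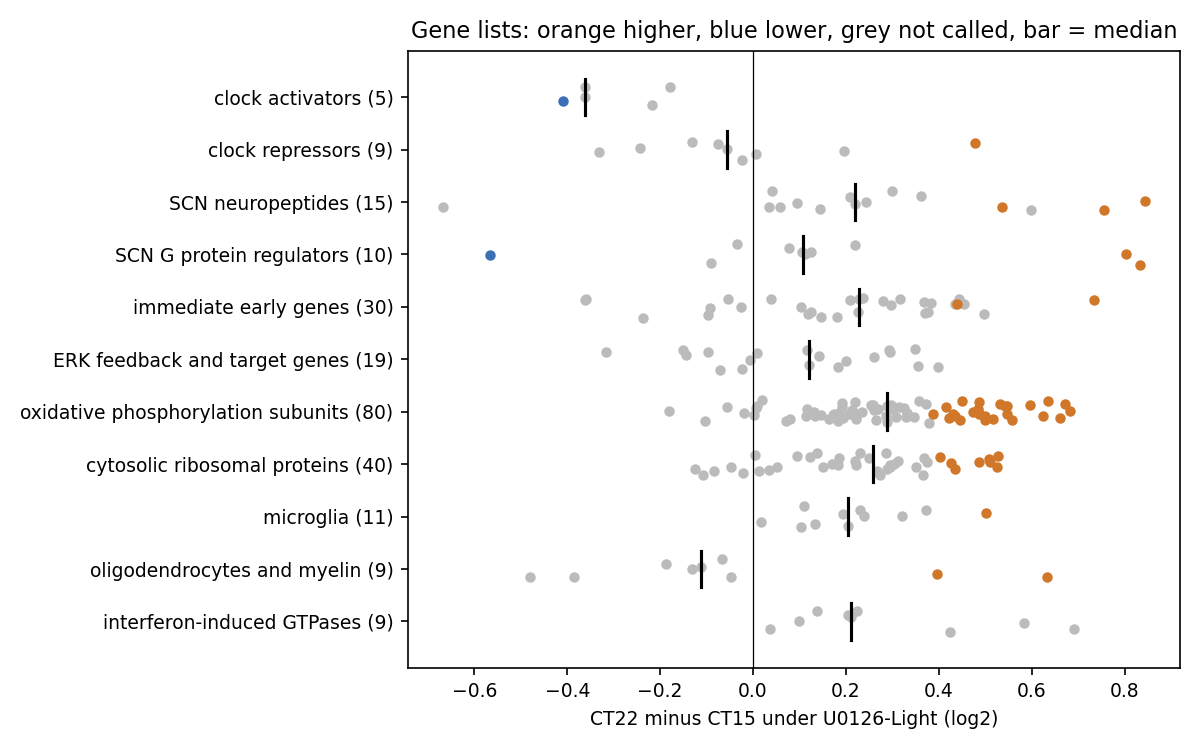
Difference between CT22 and CT15 under U0126-Light (log2, horizontal) for the members of 11 gene lists, 1 point per gene with the number measured in brackets; orange points were called higher, blue lower, grey not called, and the bar is the median. Oxidative phosphorylation and ribosomal protein genes lie mostly to the right of 0, with 26 of 80 and 8 of 40 called higher, while no interferon-induced GTPase was called.

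Genes of mitochondrial respiration made up the largest block of called protein-coding genes among the lists. Of 80 subunits of oxidative phosphorylation 26 were higher (32.5%) and none lower, 76 had a positive difference, and the median was 0.29. Cox7a2, a subunit of cytochrome c oxidase, read 8.86, 8.84 and 8.75 early and 9.42, 9.49 and 9.59 late, higher by 0.68 (adjusted p = 3.4e-05). Ndufa2, of complex I, read 7.80, 7.67 and 7.64 early and 8.25, 8.50 and 8.37 late, higher by 0.67 (adjusted p = 5.12e-05). In both genes the late arrays stood clear of the early ones. The core subunits Ndufs1 (-0.18), Sdha (-0.02) and Uqcrc2 (-0.10) were not called. Of 40 cytosolic ribosomal protein genes 8 were higher (20%) and none lower, with a median of 0.26, led by Rpl35 and Rpl37a at 0.53 each. Ribosomal protein genes have many near-identical pseudogenes, and how signal divides among them was not resolved here.

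The background of the arrays was higher at CT22, as these genes were, while the median of the array values was lower. Under U0126-Light that median over all tested probe sets ran from 4.60 to 4.64 early and from 4.54 to 4.58 late. The background control probe sets, which match no mouse gene, averaged 3.41 to 3.54 on the CT15 arrays and 3.64 to 3.72 on the CT22 arrays. The same step was seen in the other treatments: all 12 CT22 arrays of the series lay at 3.62 or above and all 12 CT15 arrays at 3.57 or below. The mean of the ribosomal protein genes ran from 7.76 to 7.84 early and from 7.99 to 8.08 late under U0126-Light. Circadian time and whatever was done separately to the CT22 arrays cannot be told apart. With the mean of the background probe sets as a covariate, a setting added after the data were seen, 202 genes were called, 152 higher and 50 lower, of which 162 were among the 1063. Oxidative phosphorylation then gave 5 higher genes and the ribosomal proteins 1. Fabp7 (1.63), Cck (0.87), Rgs16 (1.04), Rasl11b (0.72), Nr1d1 (0.53) and Cdh19 (-1.02) were still called. Of the 88 named genes that were called, 28 kept their call with this covariate and 60 lost it, 30 of them with a difference smaller by more than 1.5 times. Because the covariate sets every CT22 array apart from every CT15 array, it overlaps with circadian time and makes the time difference less precise. A call can therefore be lost with its difference little changed, and such a loss cannot tell background from circadian time.

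The genes that lost it included Clock (-0.26) and most of the signaling genes given above: Rasd1 (-0.29, adjusted p = 0.549), Prok2 (0.33, adjusted p = 0.619), Avp (0.55, adjusted p = 0.50), Oxt (0.71, adjusted p = 0.473), Arc (0.72, adjusted p = 0.364) and Fosl2 (0.51, adjusted p = 0.169). Cox7a2 (0.47, adjusted p = 0.00885) and Ndufa2 (0.47, adjusted p = 0.017) were still called, as was Rpl35 (0.43) but not Rpl37a (0.34). The interferon-stimulated gene Isg15 gained a call, at 0.61 (adjusted p = 0.0508).

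**Figure D4:**
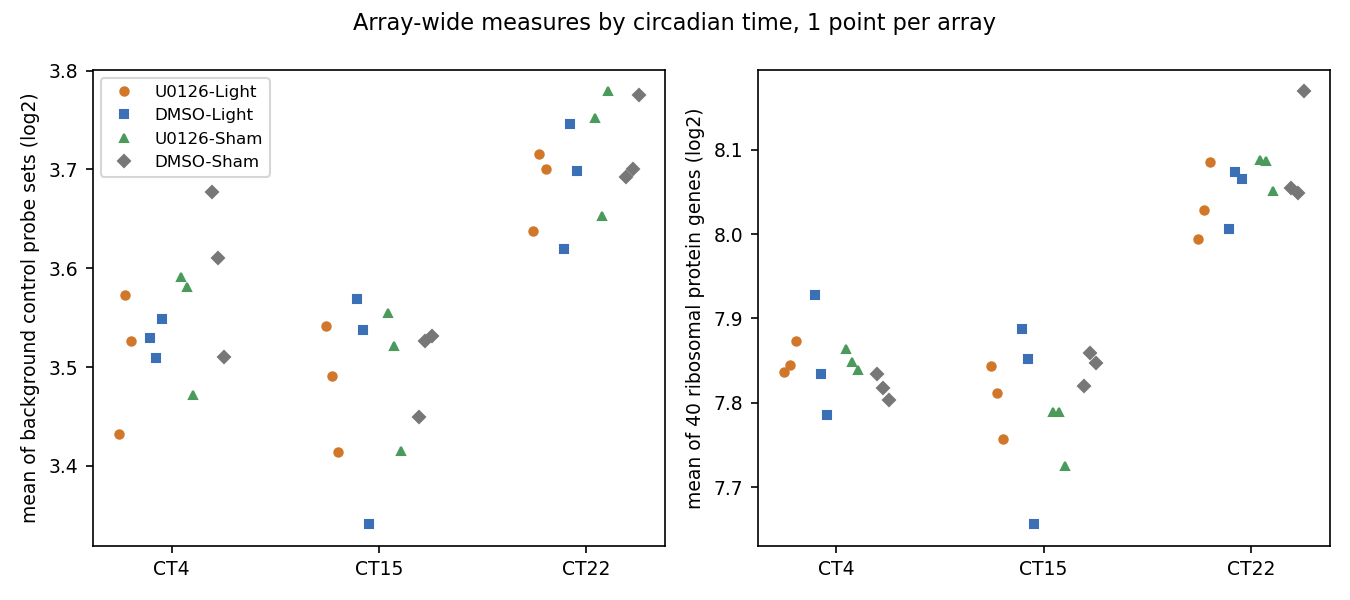
Mean log2 intensity of the background control probe sets (left) and of the 40 ribosomal protein genes (right) on each of the 36 arrays, by circadian time and treatment. The 12 CT22 arrays lie above all 12 CT15 arrays in both panels, at 3.62 to 3.78 against 3.34 to 3.57 for the background and at 7.99 to 8.17 against 7.66 to 7.89 for the ribosomal proteins.

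Higher and lower genes also differed in size. The 408 protein-coding genes called higher had a median genomic span of 5.20 kb, the 165 called lower 60.7 kb and the 18477 not called 18.8 kb. Apart from Fabp7 and the respiratory genes, protein-coding genes with large rises, named here after their values were seen, included the lipoprotein gene Apoc1 (0.73, adjusted p = 0.00302), the neuroendocrine convertase inhibitor Pcsk1n (0.70), the membrane metalloprotease Mmp14 (0.67) and the growth factor binding protein Igfbp7 (0.66). Apoc1 was not called with the background covariate (0.49, adjusted p = 0.259), while the other 3 were. Pcsk1n read 8.18, 8.20 and 7.94 early and 8.67, 8.76 and 8.99 late, with no overlap.

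The lowest protein-coding gene was the cadherin Cdh19. It read 6.59, 6.42 and 6.86 at CT15 and 5.90, 5.62 and 5.36 at CT22, so every late array was below every early one. The difference was -0.997 (SE 0.18, adjusted p = 0.000703), a 2.00-fold lower level, and was called under all settings. Other falls, also named after their values were seen, were those of the matricellular protein gene Ccn3 (-0.83, adjusted p = 0.0116), the potassium channel gene Kcnh8 (-0.65), the growth factor gene Pdgfd (-0.62) and the guidance factor gene Sema3e (-0.53). Each of the 4 had separate groups and was called without any one array, and each lost its call with the background covariate: Ccn3 at -0.67 (adjusted p = 0.298), Kcnh8 at -0.27 (adjusted p = 0.53), Pdgfd at -0.53 (adjusted p = 0.22) and Sema3e at -0.39 (adjusted p = 0.129).

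MicroRNA genes supplied 7 of the 12 largest falls among called genes with separate groups. Of 597 measured, 64 were lower (10.7%, against 1.23% of all genes) and 13 higher (2.18%), with a median of -0.05. The 64 became 35 without CT15 array 3, 39 without dim probe sets and 7 with the background covariate. These 7 genes are shown by the mature RNAs that RefSeq lists for them on GRCm38.p6, with the seed, bases 2 to 8, in capitals. The array names the microRNA gene, and whether its probes read an arm or the precursor was not resolved.
mmu-miR-876-3p: uAGUGGUUuacaaaguaauuca
mmu-miR-876-5p: uGGAUUUCucugugaaucacua
mmu-miR-378c: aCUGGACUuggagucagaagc
mmu-miR-380-3p: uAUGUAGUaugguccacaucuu
mmu-miR-380-5p: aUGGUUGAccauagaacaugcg
mmu-let-7f-1-3p: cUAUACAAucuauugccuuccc
mmu-let-7f-5p: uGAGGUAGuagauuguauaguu
mmu-miR-687: cUAUCCUGgaaugcagcaauga
mmu-miR-1197-3p: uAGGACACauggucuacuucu
mmu-miR-1197-5p: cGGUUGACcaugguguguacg
mmu-miR-325-3p: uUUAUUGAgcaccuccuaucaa
mmu-miR-325-5p: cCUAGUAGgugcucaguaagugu
No seed was shared between 2 of these 7 genes. Mir876 read 5.18, 5.83 and 6.01 at CT15 and 4.65, 4.03 and 4.13 at CT22, lower by -1.40 (SE 0.23, adjusted p = 0.00028). Mir380 read 4.82, 4.67 and 4.92 early and 3.80, 3.75 and 3.41 late, lower by -1.15 (SE 0.21, adjusted p = 0.00056). Its late arrays lay close to the background control probe sets, which averaged 3.64 to 3.72 at CT22. Mir325, the brightest of the 7, read 9.42, 9.78 and 9.88 early and 8.81, 9.03 and 8.45 late, lower by -0.93 (SE 0.20, adjusted p = 0.00224). The 12 falls were taken only from genes with every late array below every early one, so these 3 are separate by selection. A second, dimmer probe set of Mir325 was at -0.99 (adjusted p = 0.00153). Mir687 was at -0.97 and Mir1197 at -0.95, also called without any one array. Mir378c, at -1.32 (adjusted p = 0.0329), was not called without CT15 array 2 (-1.23), CT22 array 2 (-1.22) or CT22 array 3 (-1.05). With the background covariate Mir876 (-0.89), Mir380 (-1.02) and Mir687 (-0.76) were still called, while Mir325 (-0.54), Mir1197 (-0.71), Mir378c (-0.41) and Mirlet7f-1 (-0.69) were not.

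The let-7 seed GAGGUAG is carried by 12 measured genes, of which 4 were lower and none higher. Mirlet7f-1 read 5.56, 5.12 and 5.74 at CT15 and 4.97, 4.36 and 4.18 at CT22, lower by -0.97 (SE 0.20, adjusted p = 0.00212). Its neighbours on chromosome 13, Mirlet7a-1 (-0.46, adjusted p = 0.0106) and Mirlet7d (-0.57, adjusted p = 0.00343), and Mirlet7c-1 on chromosome 16 (-0.69, adjusted p = 0.00266) were the other 3, all with separate groups. With the background covariate none of the 4 was called (-0.32 to -0.69). The remaining 8 were not called, Mirlet7e among them at 0.35. Of these, Mir1961 (1.86 at CT15 and 1.91 at CT22) and Mirlet7f-2 (2.37 and 2.41) lay under the background control probe sets. Their values are no measure of expression. Mirlet7g (3.64 and 3.68) lay close to the background. Let-7 genes are near-identical in the mature RNA, so the share of each in its probe set is uncertain. Mir380 and Mir1197 belong to the imprinted cluster on chromosome 12, which was looked at after their values were seen. In it 8 of 42 microRNA genes were lower (19.0%), these 2 included, and none was higher. Of all 597 microRNA genes 10.7% were lower. Whether the cluster differs from the other microRNA genes was not tested.

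Small nucleolar RNAs (snoRNAs) guide the modification of ribosomal and other RNAs. They supplied 10 of the 12 largest rises among called genes with separate groups. Of 955 snoRNA genes 48 were higher (5.03%) and 23 lower (2.41%). Snord111 read 7.05, 6.97 and 6.02 at CT15 and 7.47, 8.11 and 8.53 at CT22, higher by 1.36 (SE 0.35, adjusted p = 0.00805). Snord35a read 8.11, 7.83 and 7.67 early and 8.74, 9.25 and 9.59 late, higher by 1.33 (SE 0.22, adjusted p = 0.000296). Both had a wide spread among the late arrays, and their groups are separate by selection, since the 12 rises were taken only from such genes. The count of higher snoRNA genes was 26 without CT15 array 3, 27 without CT22 array 3 and 6 with the background covariate, under which Snord35a was called (1.03) and Snord111 was not (1.06, adjusted p = 0.284).

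Markers of other cells of the region gave calls in several lists. The highest share was that of ependymal cells and tanycytes, the cells that line the ventricle, of whose 7 markers 2 were higher (28.6%, median 0.11): Tmem212 at 0.50 and Rarres2 at 0.48. Tmem212 was not called without CT15 array 2, CT22 array 1 or CT22 array 2, nor Rarres2 without CT15 array 2 or any CT22 array, and their values then ran down to 0.31 and 0.26. The mean level of the list ran from 5.35 to 5.81 at CT15 and from 5.82 to 5.91 at CT22, and its part in the rise of Fabp7 was not tested. Vtn, of pericytes, was at 0.40 (1 of 8) and the neuronal Tubb3 at 0.41 (1 of 8), both not called without CT15 array 3 or CT22 array 3 (0.32 at the lowest for each). The endothelial transporter gene Slco1a4 was at -0.42 (1 of 10), called in 1 of the 6 fits that left out an array. It went against most of its list, since 7 of the 10 endothelial markers had a positive difference and the median was 0.19. None of these 5 calls held with the background covariate.

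Of 9 oligodendrocyte and myelin markers 2 were higher: Opalin, which read 6.83, 7.15 and 6.79 early and 7.69, 7.55 and 7.43 late (0.63, adjusted p = 0.0143), and Cnp (0.40, adjusted p = 0.0587). The median of the list was -0.11, with the myelin genes Mobp (-0.39) and Mbp (-0.11) not called, and Cnp was not called without CT15 array 3 (0.29), CT22 array 1 (0.33) or CT22 array 2 (0.36). With the background covariate Opalin was at 0.32 (adjusted p = 0.557) and Cnp at 0.09, neither called. Of 11 microglial markers only the complement gene C1qc was called, at 0.50 (adjusted p = 0.0765). Leaving out any 1 of the 6 arrays ended that call (0.45 to 0.54). All 11 markers had a positive difference, with a median of 0.20. The mean level of the list ran from 6.27 to 6.32 at CT15 and from 6.47 to 6.54 at CT22. No member of the interferon-induced GTPases (9 measured, median 0.21), the interferon-stimulated genes (22, median 0.15), the MHC and antigen processing genes (16, median 0.18) or the chemokines (15, median 0.21) was called in the limma fit, although 1, 1, 3 and 1 of them had an unadjusted p under 0.05. Irgm2, the largest of the GTPases, was at 0.69 with a wide error (SE 0.33, adjusted p = 0.173), and it (adjusted p = 0.0434) and Gbp2 (0.58, adjusted p = 0.0993) were called when only the 6 arrays were fitted. The 4 lists had medians of 0.17 to 0.32 under DMSO-Light, -0.71 to 0.01 under U0126-Sham and 1.12 to 2.27 under DMSO-Sham. Under DMSO-Sham 9 of 9 GTPases, 20 of 22 interferon-stimulated genes, 15 of 16 MHC genes and 13 of 15 chemokines were called higher. No member passed the test of the difference between U0126-Light and any of these treatments in the fit of 12 groups. Against DMSO-Sham that test called 174 of all genes when only the 4 groups were fitted, so it does not show these lists to be alike.

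The same late minus early difference was taken under the 3 other treatments, which share no array with U0126-Light or with each other. It gave 2019 called genes under DMSO-Light (6.69%), 2062 under U0126-Sham (6.83%) and 2026 under DMSO-Sham (6.71%). Of the 1063 genes called under U0126-Light, 603 (56.7%) were also called in the same direction under DMSO-Light, 778 (73.2%) under U0126-Sham and 592 (55.7%) under DMSO-Sham, which are 29.9%, 37.7% and 29.2% of those longer lists. The sign was the same for 96.6%, 98.4% and 96.0% of the 1063. Across all 30176 genes the differences correlated at r = 0.68, 0.70 and 0.57, a description over genes, which are not independent replicates. The higher background of the CT22 arrays was common to all 4 treatments, so a shift of those arrays would enter each difference. Its part in this agreement was not tested. In all 4 treatments 408 genes were called, 279 higher in each and 129 lower in each. Fabp7 was at 1.37 under DMSO-Light, 1.51 under U0126-Sham and 1.33 under DMSO-Sham, and Cdh19 at -1.14, -1.08 and -0.96.

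**Figure D5:**
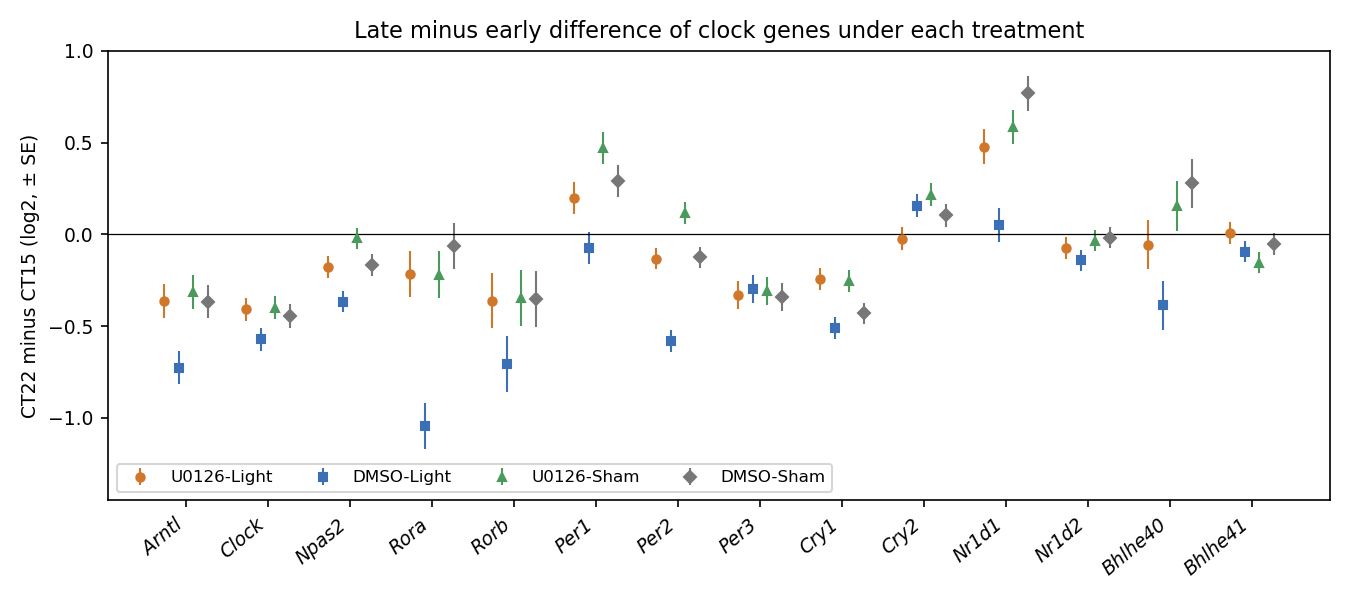
Late minus early difference (log2, vertical) of 14 clock genes under each of the 4 treatments, with the standard error of the limma fit as bars, 3 arrays a side. Under DMSO-Light, Per2 (-0.58) and Rora (-1.04) lie far below their U0126-Light values (-0.13 and -0.22).

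The test of the difference between treatments called few genes. Against DMSO-Light 8 genes differed (0.0265%), against DMSO-Sham 2 (0.00663%), and against U0126-Sham none, where 1115 genes had an unadjusted p under 0.05 and the smallest adjusted p was 0.70. These counts leave out the 33142 probe sets with no gene symbol. Of those, 78 had a lower and 2 a higher time difference under U0126-Light than under DMSO-Light. Per2 was among the 8 genes. Under DMSO-Light it read 7.75, 7.97 and 7.89 at CT15 and 7.32, 7.24 and 7.31 at CT22, a fall by 0.58 that was 0.45 larger than under U0126-Light (SE 0.08, adjusted p = 0.0722). The early DMSO-Light arrays stood above all U0126-Light arrays. Rora, the nuclear receptor that activates Arntl, read 9.19, 9.27 and 9.39 at CT15 and 8.14, 8.33 and 8.25 at CT22 under DMSO-Light, against 8.22, 8.46 and 8.60 and 8.37, 8.36 and 7.90 under U0126-Light, where the groups overlapped. The 2 time differences were apart by 0.83 (SE 0.18, adjusted p = 0.0902). Rora has 3 probe sets: in a dimmer one the gap was 0.57 (SE 0.12, adjusted p = 0.0902), from -0.10 under U0126-Light and -0.66 under DMSO-Light, and in the other it was 0.05 (SE 0.14, adjusted p = 0.963). The calls of Per2 and of the brightest Rora probe set were each kept in 4 of the 12 fits that left out 1 array of the 4 groups, with adjusted p up to 0.293 for Per2 and 0.293 for Rora in the others, and 0 genes differed when only the arrays of the 4 groups were fitted.

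Several lead genes were close to 0 under DMSO-Light, yet the difference between treatments did not pass. Rgs16 was at 0.03 there against 0.83 under U0126-Light, a gap of 0.81 (95% interval 0.33 to 1.29, adjusted p = 0.22). Rasl11b was at 0.15 (gap 0.65, 95% interval 0.20 to 1.11, adjusted p = 0.32). Cck was at 0.13 (gap 0.63, 95% interval 0.24 to 1.02, adjusted p = 0.23). Nr1d1 was at 0.05 (gap 0.43, 95% interval 0.16 to 0.70, adjusted p = 0.25). Against U0126-Sham the gaps of these 4 genes were -0.06, 0.26, 0.09 and -0.11, each with an interval that included 0. None of these intervals is adjusted for the number of genes tested. The 4 genes were taken up for their calls under U0126-Light, so their gaps from another treatment may be overstated. No difference between treatments was called for them.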

How the data were processed

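Total RNA of SCN pools was read on GeneChip Mouse Transcriptome Assay arrays, 36 in all. The values used were the log2 intensities per probe set that the authors deposited in the series matrix; their methods name the oligo and limma packages, and the normalization method is not given in the sources used here. Array values carry no read depth, so the number of arrays limits the precision. Nothing was normalized again. Probe sets were named from the platform annotation: of 65956 tested after 6732 control probe sets were left out, 30638 carried 1 symbol, 2176 several and 33142 none. The 30176 genes took the brightest probe set, and for some genes, Mir325, Rora, Rorb and Vmn1r79 among them, that probe set may lie elsewhere in the genome.

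A model of 12 group means was fitted over all 36 arrays with limma 3.58.1 in R 4.3.3, with moderated variances (eBayes) and Benjamini-Hochberg adjustment over all 65956 probe sets; the thresholds for calls were 0.1 on the adjusted p and 1.3 on the fold. Intervals are at 95%. Sequences and motif matches were read from RefSeq with Python 3.11.15.

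Named genes were the 12 largest rises and falls with separate groups, every clock gene, up to 4 called members (or the 2 of smallest p) of each other list, Per1, Per2, Fos, Rrad, Dusp4, Dusp6, Spry2 and Spry4, and up to 6 genes for each test of a difference between treatments. Any further gene was chosen after its values were seen. The comparison, its gene lists and its tests were chosen with earlier results of these data known. Alternatives covered the replicate block, the arrays in the fit, dim probe sets, quantile and cyclic loess normalization, the variance model, array weights, thresholds, covariates for sex-linked genes, for 5S ribosomal RNA and for array background, the mean over a gene's probe sets, and each array left out. Replicate numbers were not used as pairs, since same-numbered arrays deviated together in some pairs of groups only.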

Additional observations from a re-analysis of the deposited data

Results flagged for a closer look

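The late minus early difference was tested between treatments, and 8 genes differed between U0126-Light and DMSO-Light and 2 between U0126-Light and DMSO-Sham. Per2 (0.45) and Rora (0.83), given above, were the clock genes among them. Every value here is the U0126-Light difference minus that of the other treatment, and the adjusted p is that of the limma fit.

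In 3 of the other 6 genes the gap from DMSO-Light lay mostly in a fall under DMSO-Light. Lpar6, a receptor for lysophosphatidic acid, was at -0.83 late against early under DMSO-Light and at 0.03 under U0126-Light, a gap of 0.85 (SE 0.19, adjusted p = 0.0902). Under the same treatments in that order, Plekhg1 was at -0.57 and -0.09, a gap of 0.48 (SE 0.11, adjusted p = 0.0902), and Zfp750, a zinc finger factor, at -0.54 and 0.02, a gap of 0.57 (SE 0.12, adjusted p = 0.0902). Cacng5, which encodes a regulatory subunit of AMPA glutamate receptors, was at -0.29 under DMSO-Light and 0.30 under U0126-Light, opposite in sign, with a gap of 0.60 (SE 0.11, adjusted p = 0.0662).

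Vmn1r79, a vomeronasal receptor gene, was not above background: its probe sets averaged 2.22 and 2.09 over all arrays, under the 3.34 to 3.78 of the background control probe sets at CT15 and CT22, so its fitted gap of 0.64 (adjusted p = 0.074) is no measure of expression. The snoRNA gene Gm22371 was at 0.30 and -0.24, a gap of -0.54 (adjusted p = 0.0902), at levels from 3.62 to 4.13 on all arrays, close to the background probe sets. Lpar6 lay there too, except on the early DMSO-Light arrays (4.32 to 4.72).

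From DMSO-Sham, Ms4a6d, a gene of the membrane-spanning 4A family found in myeloid cells, differed by -1.43 (SE 0.27, adjusted p = 0.0784). Under DMSO-Sham it read 4.58, 4.58 and 4.55 at CT15 and 5.68, 5.66 and 6.15 at CT22, clearly apart, while under U0126-Light it read 4.63, 4.63 and 4.70 early and 4.52, 4.51 and 4.42 late, near the early sham level throughout. Slc14a1, the urea transporter of astrocytes and red cells, differed by -0.54 (adjusted p = 0.092), from -0.14 under U0126-Light and 0.40 under DMSO-Sham.

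These calls were narrow. Of the 12 fits that each left out 1 array of the 4 groups, Cacng5 was called in 5, Vmn1r79, Ms4a6d and Slc14a1 in 3 each, Gm22371 in 2, and Lpar6, Plekhg1 and Zfp750 in 1 each. With the replicate block Plekhg1 (adjusted p = 0.105) and Lpar6 (adjusted p = 0.118) were not called.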

How the results depend on the processing

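The late against early comparison under U0126-Light called 1063 genes and ranged from 697 (without CT15 array 3) to 1551 (without CT22 array 1) with 1 array left out. It stayed within 1.5 times of 1063 under every other setting except 6561 with no fold threshold and 202 with the background covariate, which was chosen after seeing the data; 11.9% of the 1063 genes were called under every alternative. Covariates for Xist and the Y-linked genes gave 887, of which 732 were among the 1063, and leaving out both U0126-Light pools numbered 2, also chosen afterwards, gave 1065 with 800 shared. Quantile normalization gave 902 higher and 300 lower genes, against 692 and 371. Of 88 named genes called, 27 were called under every setting, no called gene reversed, and 19 that were not called changed sign in some setting.

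The tests between treatments were less stable. Against DMSO-Light the 8 genes became 79 with array weights, 22 with the background covariate, 678 at an unadjusted p of at most 0.1, 3 over genes with 1 symbol, and 0 under cyclic loess, at an adjusted p of 0.05, with only the 4 groups fitted, with sex-linked or 5S covariates, or without both pools numbered 2; leaving out 1 array gave 0 to 50. Against DMSO-Sham the 2 genes became 12 with the replicate block, 174 with only the 4 groups fitted, 26 without dim probe sets, 4 with a trended robust variance, 111 with array weights, 82 with the background covariate, 998 unadjusted, and 0 under both normalizations, at an adjusted p of 0.05, over genes with 1 symbol, with sex-linked or 5S covariates, or without both pools numbered 2; leaving out 1 array gave 0 to 26. Against U0126-Sham the count was 0 throughout, leaving out 1 array included (0 to 0), except 501 unadjusted. The causes of these shifts were not tested.

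The replicate block gave 1064, 7, 0 and 12 genes for these 4 comparisons. Same-numbered U0126-Light arrays at CT15 and CT22 deviated together with correlations of -0.24, -0.06 and -0.24, so the numbers were not read as pairs, although those of U0126-Light and DMSO-Light at CT15 did so at 0.33, 0.18 and 0.41 and those of U0126-Sham at CT15 and CT22 at 0.13, 0.13 and 0.22. With 3 pools a side, a single comparison by exact permutation could not go below p = 0.1.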

Other observations

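Ion channels and signals of the stress response added a few calls under U0126-Light. Of 15 SCN channel genes 2 were higher at CT22: Kcnj9, a subunit of G protein-gated potassium channels, at 0.40 (adjusted p = 0.000244), and Hcn2, a channel of the hyperpolarization-activated current, at 0.39 (adjusted p = 0.0165). Kcnj9 was not called without CT15 array 3 (0.37) or CT22 array 3 (0.38), and Hcn2 not without CT15 array 1 (0.33) or CT22 array 2 (0.31). Of 11 genes of SCN identity only Syt10, a synaptotagmin enriched in the SCN, was called, at -0.43 (adjusted p = 0.058), with overlapping arrays, and the call was lost without CT15 array 3 (-0.30) or CT22 array 3 (-0.22). With the background covariate none of these 3 genes was called, at 0.27 for Kcnj9, 0.16 for Hcn2 and -0.13 for Syt10.

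Of 17 glucocorticoid-induced genes 3 were higher. Cdkn1a, a cell cycle inhibitor, was at 0.46 (adjusted p = 0.0255) and was called without any one array. Ddit4, an inhibitor of mTOR signaling, was at 0.42 (adjusted p = 0.0117), and the call was lost without CT15 array 3 (0.34) or CT22 array 3 (0.36). Angptl4, a secreted inhibitor of lipoprotein lipase, was at 0.49 (adjusted p = 0.0481), and was not called without CT15 array 2, CT15 array 3 or CT22 array 3 (adjusted p up to 0.198). With the background covariate Cdkn1a was called (0.71, adjusted p = 0.0379), and Ddit4 (0.23) and Angptl4 (0.44) were not.

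Probe sets with no gene symbol went mostly the other way from named genes. Of 33142 such probe sets 510 were higher at CT22 (1.54%) and 4159 lower (12.5%), against 692 and 371 of the 30176 genes. Under U0126-Light their mean level ran from 4.41 to 4.48 on the CT15 arrays and from 4.36 to 4.40 on the CT22 arrays. Under U0126-Sham it ran from 4.45 to 4.48 and from 4.34 to 4.42. The ranges of the 2 times overlapped under DMSO-Light (4.36 to 4.43 and 4.37 to 4.42) and DMSO-Sham (4.37 to 4.38 and 4.34 to 4.38). The cause of the step under U0126 was not tested.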
